A study of Mus musculus with 9 samples.

Results

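The genes described here encode voltage-gated calcium, sodium and potassium channels and the other potassium channels of mouse gastrocnemius, the large calf muscle. They are the protein-coding genes whose symbols begin with Cacn, Kcn, or Scn followed by a digit. The rule found 134 genes among 55416 gene identifiers, and 61 of the 134 had enough reads to be tested. Total RNA of left gastrocnemius was sequenced in 9 libraries, 3 in each of 3 groups. SED stands for sedentary mice. AET stands for mice trained by aerobic exercise on a treadmill on 5 days a week, 60 minutes a day, for 8 weeks. AET_MET stands for mice trained on the same schedule with metformin, an oral glucose-lowering drug, at 2 mg/mL in the drinking water. The design text gives 8 to 9 mice per group, and no source used here states strain, sex or age. Because no group with metformin alone was analysed here, an action of the drug by itself and an action on the training response cannot be told apart.

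Voltage-gated channels open when the membrane potential changes, and the ion they pass sets their role. In skeletal muscle, sodium channels carry the action potential along the fiber and into its transverse tubules. L-type calcium channels there sense the voltage and trigger calcium release from the sarcoplasmic reticulum. Potassium channels bring the membrane back to rest and hold it there. Many pore proteins work with auxiliary subunits that set their number at the membrane and their gating. Muscle tissue also holds nerve, glia, vessels and connective tissue cells, which have channels of their own.

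Libraries held 15434400 to 25355900 expected counts, the lowest in AET_MET replicate 1. Nothing in the labels ties each library to a mouse of its own. The p-values therefore rest on the scatter among these libraries, part or all of which may be technical. Fast-fiber markers summed to 124717 to 145538 CPM (counts scaled to library size) in all libraries, and 0 of 6 brain markers had enough reads to be tested. The 11 slow-fiber markers summed to 934 to 1146 CPM in SED, 435 to 1417 in AET and 190 to 823 in AET_MET. Their estimates were above 0 for 1 of 11 in AET and 0 of 11 in AET_MET against SED, with medians of -0.39 and -1.22, and none was called. In bulk tissue, fewer cells of a type and less RNA per cell cannot be told apart. CPM here are scaled by TMM, edgeR's correction for library composition.

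The regions just upstream of 3 genes are shown because these genes changed most, or in both trained groups, and the regions overlap no annotated gene. Each is the 250 bases before the start of the RefSeq gene in build GRCm38.p6, written 5′ to 3′ on the strand of the gene. Capitals mark a GC box, GGGCGG on either strand. The regions are chr15:80286988-80287237 on the plus strand for Cacna1i, chr12:17176889-17177138 on the minus strand for Kcnf1 and chr7:46396218-46396467 on the plus strand for Kcnc1.
Cacna1i: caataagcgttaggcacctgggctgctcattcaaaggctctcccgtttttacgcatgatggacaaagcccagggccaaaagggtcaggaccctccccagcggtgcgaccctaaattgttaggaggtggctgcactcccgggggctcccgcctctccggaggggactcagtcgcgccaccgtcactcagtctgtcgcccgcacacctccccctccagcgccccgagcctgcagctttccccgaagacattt
Kcnf1: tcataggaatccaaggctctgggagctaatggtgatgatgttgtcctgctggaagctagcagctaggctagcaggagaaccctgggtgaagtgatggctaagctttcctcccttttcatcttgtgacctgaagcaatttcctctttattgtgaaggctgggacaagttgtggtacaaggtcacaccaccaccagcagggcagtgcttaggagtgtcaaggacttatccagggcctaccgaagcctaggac
Kcnc1: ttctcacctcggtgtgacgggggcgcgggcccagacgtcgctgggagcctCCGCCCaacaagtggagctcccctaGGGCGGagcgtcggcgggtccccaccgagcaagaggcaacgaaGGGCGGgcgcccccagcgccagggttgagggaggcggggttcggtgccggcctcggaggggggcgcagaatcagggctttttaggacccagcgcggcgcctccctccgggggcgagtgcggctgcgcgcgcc
The Kcnc1 region was 74.4% G and C and held 3 GC boxes. Those of Cacna1i, at 62.4%, and Kcnf1, at 51.2%, held none. Other motifs were searched on both strands, and none of them stood in the 3 regions. The GC box was held by 32.7% of 32851 RefSeq windows of this length. The E-box CAGCTG, bound by myogenic factors, was held by 13%. The FOXO-like motif GTAAACA was held by 3.17%, a MEF2-like motif by 3.2% and the TATA box TATAAA by 12.4%. A match is a description of letters and not a binding site. RefSeq windows were matched for 99 of the 134 channel genes.

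Between genes, levels were compared per length as TPM, the share of a library after dividing counts by the merged exon length. The genes of the excitation-contraction machinery stood at the top. Cacna1s, the pore and voltage sensor of the muscle L-type calcium channel, was highest at 446 ± 46.1 TPM (SD over 9 libraries). Cacng1, the gamma subunit of that channel, was next at 334 ± 50.4 TPM. Scn4a, the adult muscle sodium channel pore, stood at 183 ± 13.8 TPM, and Scn4b, a sodium channel beta subunit, at 151 ± 14.2 TPM. The 5 highest genes held 69.9% of the summed TPM of all channel genes. The highest potassium channel genes were Kcnj2, an inward rectifier that sets the resting potential, at 54.8 ± 4.24 TPM, and Kcnj11, the pore of the ATP-sensitive channel, at 51.2 ± 4.67 TPM. The gap was smaller than either spread, and with the longest transcript as the length their order turned, to 47.4 and 51.8 TPM.

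**Figure D1:**
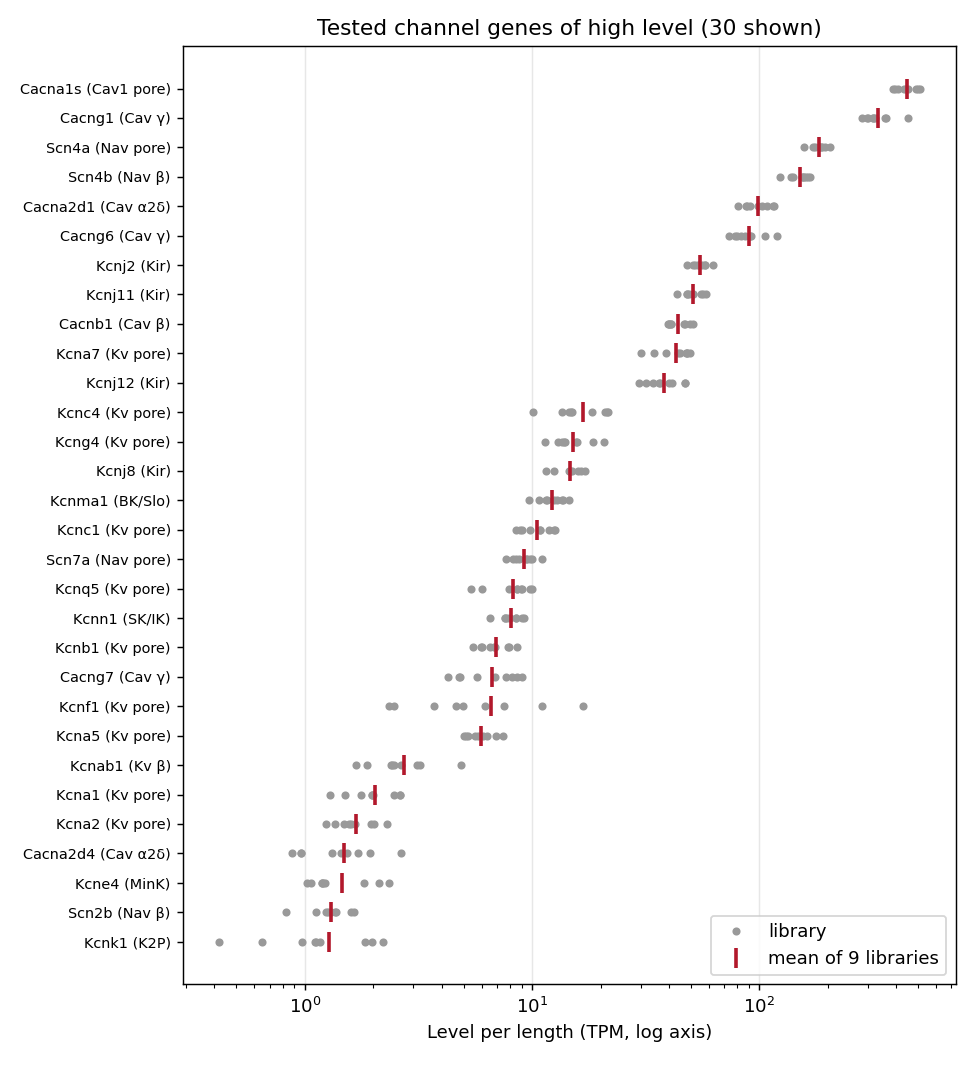
Level per length in TPM (log axis) of 30 tested channel genes of high mean, with the channel class in brackets. Grey points are the 9 libraries and red bars their mean, with Cacna1s at 446 TPM on top.

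By class, L-type pores held 23.2% of the channel TPM, calcium channel gamma subunits 22.3%, sodium channel beta subunits 20.1% and sodium channel pores 10%. Inward rectifiers held 8.3% and voltage-gated potassium pores 6.71%, although the latter class has 40 genes, of which 18 were tested. T-type calcium pores held 0.1%. Of the 134 genes, 17 reached 10 TPM. Of the 73 genes not tested, 20 had no count in any library, among them Scn10a, a sensory neuron sodium channel, and Cacna1f, a retinal calcium channel. At the smallest library, a count of 0 allows up to 0.194 CPM, taken as 3 counts. None of the 73 exceeded 0.969 CPM in any library. Genes outside the rule for named genes (stated with the processing) are named after their values were seen.

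In AET against SED, edgeR's quasi-likelihood test with Benjamini-Hochberg adjustment over all 13944 genes called 6 of 61 channel genes (9.84%) at an adjusted p under 0.05, beside 12.3% of all genes. Kcnc1, Scn2a and Kcnh2 were higher, beside 5.82% of all genes called higher, and Cacna1i, Kcnf1 and Kcnj12 were lower, beside 6.45%. Kcnh2 was tested only because its AET libraries passed the filter on low counts, so its call is no independent sign of a rise. Of the 6, 4 were below 10 TPM, as were 44 of the 61 tested. Cacna1i and Kcnc1 were also called in AET_MET against SED, as 2 of 61 (3.28%), beside 4.59% of all genes (2.17% higher and 2.42% lower). In AET_MET against AET no channel gene was called by edgeR, beside 3.43% of all genes (1.66% higher and 1.77% lower), and 16 of 61 channel genes (26.2%) had an unadjusted p under 0.05, beside 21.4% of all genes. In that comparison DESeq2 called 3 channel genes, Cacna1s, Cacng7 and Kcnj12, all higher in AET_MET, beside 880 of all 13944 genes. There limma voom called 0 channel genes, beside 428 of all genes. The comparisons with SED share the SED libraries, and those with AET share the AET libraries. The tested channel genes had a median log2 fold change of 0.02 in AET against SED, beside 0.01 over all genes. With metformin the median was -0.01 against SED and also -0.01 against AET, beside 0.00 over all genes in both.

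**Figure D2:**
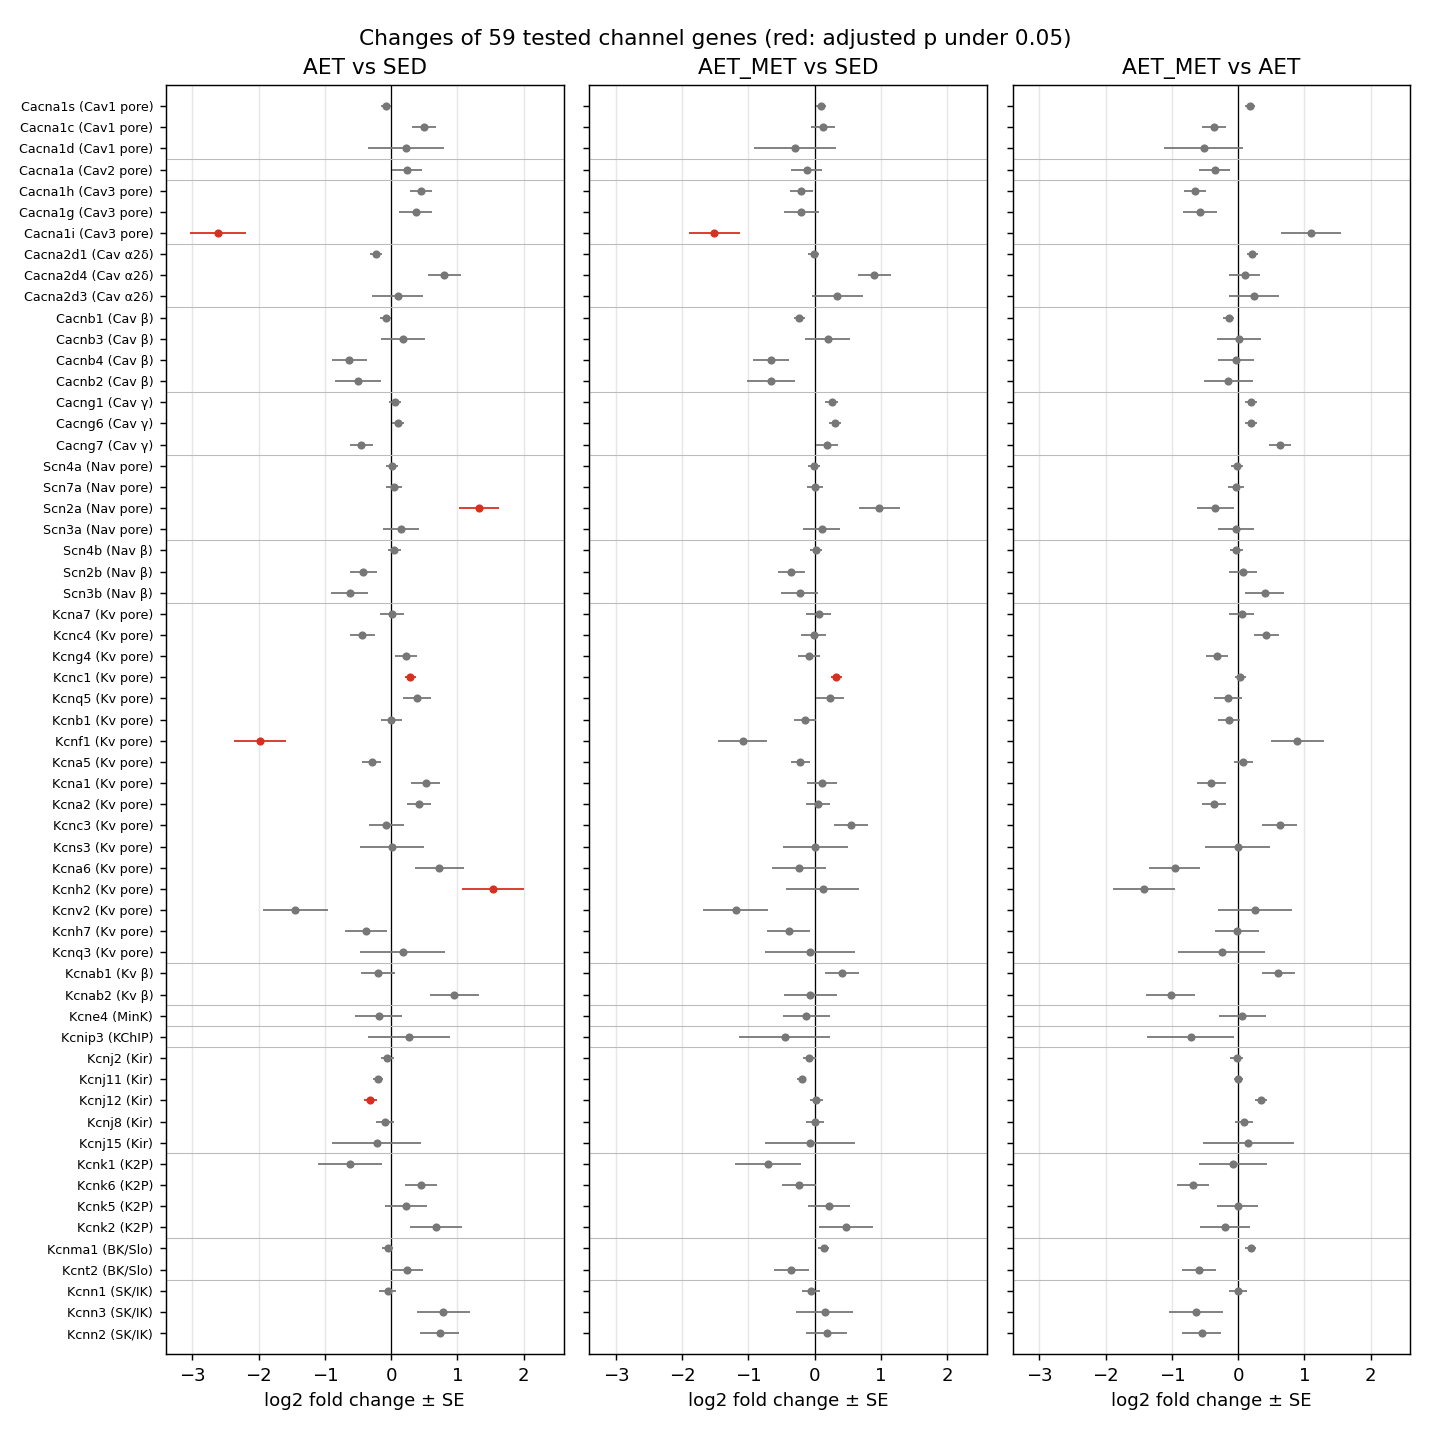
Log2 fold change ± SE of 59 tested channel genes, ordered by class, in the 3 comparisons, with genes at an adjusted p under 0.05 in red. Most points lie near 0, and Cacna1i lies farthest left in AET against SED, at -2.61.

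Among calcium channel pores, the abundant L-type gene kept close values while a scarce T-type gene fell. Cacna1s (chr1:136052750-136119822, plus strand) had 1055, 1028 and 1024 CPM in SED, 971, 970.4 and 996 in AET, and 1116, 1079.6 and 1128 in AET_MET. AET was lowest and AET_MET highest, with no overlap between any groups. The log2 fold change was -0.08 ± 0.07 in AET against SED (95% interval -0.24 to 0.08) and 0.10 ± 0.07 in AET_MET against SED. It was 0.18 ± 0.07 in AET_MET against AET (interval 0.02 to 0.34), with an adjusted p of 0.178 in edgeR and 0.0260 in DESeq2. Groups without overlap were found for 20 of 61 channel genes and 32.7% of all genes in AET against SED. For AET_MET these were 12 genes and 26.8% against SED, and 17 genes and 27.9% against AET.

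Cacna1i encodes a T-type pore, a channel that opens at low voltage and is best known from neurons. It lies at chr15:80287238-80398279 on the plus strand, downstream of the first region shown above. SED libraries had 4.11, 2.51 and 4.10 CPM (87, 57 and 84 counts). AET libraries had 0.716, 0.508 and 0.527 CPM (15, 13 and 13 counts), and those of AET_MET 0.678, 2.22 and 0.763 CPM (11, 48 and 17 counts). All AET and AET_MET libraries were below every SED library, and AET_MET replicate 2 stood well above the other two of its group. In AET against SED, Cacna1i fell by 2.61 ± 0.42 on the log2 scale (edgeR adjusted p = 0.00319). The call held without each of the 9 libraries in turn, with fold changes of -2.82 to -2.50. In AET_MET against SED it fell by 1.52 ± 0.39 (edgeR adjusted p = 0.0499). That call was lost when any single library other than AET_MET replicate 2 was left out, with adjusted p up to 0.195. It held in 6 of 9 other settings, and was lost with upper-quartile scaling (0.0502), in a fit of the 2 groups (0.110) and with the replicate number as a covariate. AET_MET against AET gave 1.10 ± 0.46 (edgeR adjusted p = 0.196). AET_MET replicate 2 also had the highest slow-fiber marker sum of its group, 823 CPM against 190 and 337. In AET the highest sum, 1417 CPM, was that of replicate 3, whose Cacna1i level was 0.527 CPM. The part of slow fibers in the values of Cacna1i, and of Kcnf1 below, was not tested.

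The other T-type pores had the opposite sign in AET. Cacna1h had 2.69, 2.20 and 2.93 CPM in SED, 3.48, 3.67 and 3.49 in AET, and 2.28, 2.27 and 2.24 in AET_MET. AET lay above both other groups, at 0.45 ± 0.16 against SED (edgeR adjusted p = 0.0938), and AET_MET was at -0.65 ± 0.17 against AET (edgeR adjusted p = 0.0532). The latter was called in 1 of 9 other settings. Cacna1g had log2 fold changes of 0.37 ± 0.25 and -0.57 ± 0.25 in these comparisons, and neither passed the test. Cacna1c, the L-type pore of heart and smooth muscle, had 3.36 to 4.58 CPM in SED and 4.88 to 7.30 in AET (0.50 ± 0.18, edgeR adjusted p = 0.0871). Smooth muscle and pericyte markers summed to 547 to 633 CPM in SED, 653 to 780 in AET and 548 to 648 in AET_MET. Of these 10 markers, 8 had estimates above 0 in AET against SED. There 3 of them were called higher, beside 5.82% of all genes. Their part in the Cacna1c values was not tested. Cacna1a, the pore of P/Q-type channels at nerve terminals, had 1.17 to 2.10 CPM over all libraries.

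Among the auxiliary calcium channel subunits, 0 of 10 tested were called by edgeR in any of the 3 comparisons, and 4 had an unadjusted p under 0.05 in AET against SED, beside 28.5% of all genes. With metformin 5 did so against SED, beside 20.6%, and 3 against AET, beside 21.4%. DESeq2 called Cacna2d4 higher in both comparisons with SED and Cacng7 higher in AET_MET against AET, and limma voom called 0. Cacna2d1, the alpha2delta subunit of the muscle channel, averaged 462 ± 46.6 CPM without training, 393 ± 20.4 in AET and 456 ± 24.5 in AET_MET, with -0.23 ± 0.09 in AET against SED (edgeR adjusted p = 0.106). Cacnb1, the beta subunit that anchors the channel, and Cacng1 had log2 fold changes of -0.09 ± 0.09 and 0.06 ± 0.09 there. Cacng6 had 55.7 to 58.7 CPM in SED and 61.3 to 79.5 in AET_MET (0.30 ± 0.09, edgeR adjusted p = 0.0731). Cacna2d4, an alpha2delta subunit best known from the retina, had 2.98, 3.21 and 3.62 CPM in SED, 7.06, 4.68 and 5.43 in AET, and 5.55, 4.21 and 8.48 in AET_MET. Every trained library was above every SED library, with edgeR adjusted p of 0.0530 and 0.0610 against SED.

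The sodium channel of the fiber differed little between groups. Scn4a had 489, 454 and 438 CPM in SED, 510.3, 416 and 460.2 in AET, and 449.5, 435 and 485 in AET_MET. These ranges overlapped, and the log2 fold change in AET against SED was 0.01 ± 0.09 (95% interval -0.19 to 0.20). Scn4b had an estimate of 0.04 ± 0.10 in AET against SED and did not pass the test. Scn2a, a pore best known from neurons, was far lower in level at 0.364 TPM. It had 0.662, 0.793 and 1.27 CPM in SED (14, 18 and 26 counts), 2.24, 2.58 and 1.99 in AET (47, 66 and 49 counts), and 1.67, 1.25 and 2.42 in AET_MET. AET lay above SED with no overlap, while AET_MET overlapped both. The rise in AET was 1.32 ± 0.30 (edgeR adjusted p = 0.0140), and it was not called without SED replicate 1 (0.0552), SED replicate 2 (0.0598) or AET replicate 2 (0.0501). Scn2a lies at chr2:65620771-65767447 on the plus strand.

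**Figure D3:**
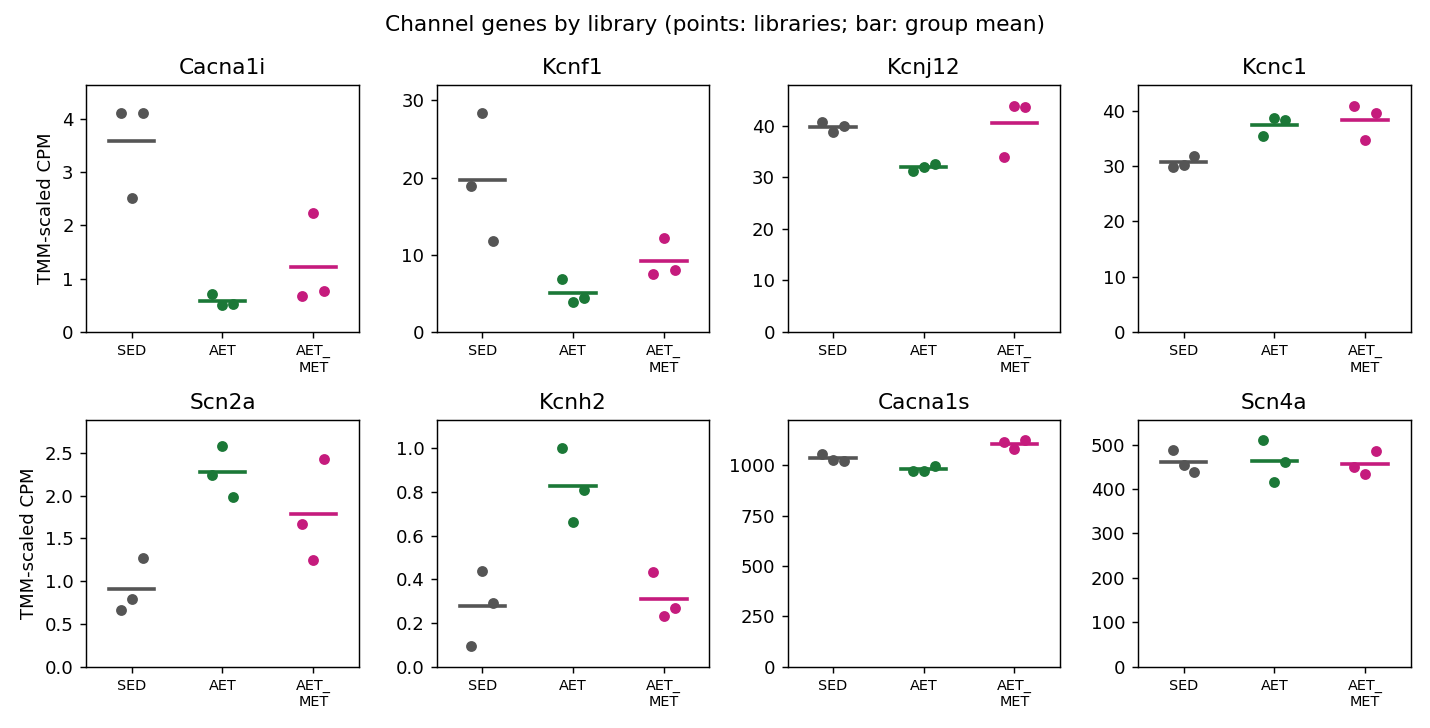
TMM-scaled CPM by library for the 6 called channel genes and for Cacna1s and Scn4a. Points are libraries and bars group means, each panel starts at 0, and the Cacna1i points of SED lie above all trained libraries.

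Among voltage-gated potassium pores, 3 of 18 tested genes were called in AET against SED, beside 12.3% of all genes. This count includes Kcnh2, which passed the filter on low counts only through the AET libraries. Kcnf1 encodes a silent subunit, which forms channels only together with other pore proteins. It lies at chr12:17172100-17176888 on the minus strand. Its CPM were 18.9, 28.4 and 11.8 in SED, 6.83, 3.87 and 4.42 in AET, and 7.52, 12.2 and 7.99 in AET_MET. AET was below all SED libraries, while AET_MET replicate 2 reached above SED replicate 3. Kcnf1 fell by 1.98 ± 0.39 in AET against SED (edgeR adjusted p = 0.0203), and was not called without SED replicate 1 (0.0541), AET replicate 2 (0.0661) or AET replicate 3 (0.0782). In AET_MET against SED the fold change was -1.09 ± 0.37 (edgeR adjusted p = 0.160).

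Kcnc1 encodes a fast delayed rectifier that shortens action potentials, and lies at chr7:46396497-46438704 on the plus strand. It had 29.9, 30.2 and 31.9 CPM in SED, 35.4, 38.8 and 38.2 in AET, and 40.8, 34.7 and 39.7 in AET_MET. All trained libraries were above all SED libraries, and the trained groups overlapped. It rose by 0.29 ± 0.08 in AET (edgeR adjusted p = 0.0330) and by 0.32 ± 0.08 in AET_MET (edgeR adjusted p = 0.0392). The AET call was lost without SED replicate 1 (0.100), SED replicate 2 (0.100), SED replicate 3 (0.0534), AET replicate 2 (0.0920) or AET replicate 3 (0.102), and with library size alone (0.0505). The AET_MET call held only without AET replicate 1 or AET_MET replicate 2, with adjusted p up to 0.162 otherwise. It held in 6 of 9 other settings, and was lost with limma voom (0.0505), in a fit of the 2 groups (0.0509) and with the replicate number as a covariate.

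Kcnh2, the ERG channel that repolarises the heart, had 0.0945, 0.440 and 0.293 CPM in SED (2, 10 and 6 counts), 1.00, 0.664 and 0.811 in AET (21, 17 and 20 counts), and 0.432, 0.232 and 0.269 in AET_MET. AET was the highest group with no overlap. Kcnh2 lies at chr5:24319589-24351604 on the minus strand. The log2 fold change was 1.54 ± 0.47 (edgeR adjusted p = 0.0486), a call lost whichever single library was left out, with adjusted p of 0.0547 to 0.175. It held in 3 of 8 other settings. It was lost with library size alone (0.0521), no filter (0.0612), DESeq2 (0.0758), a fit of the 2 groups (0.0587) and the replicate number as a covariate. Kcnh2 passed the filter on low counts only through the AET libraries, so a gene that passed in this way had to be higher there. Kcna7, the most abundant voltage-gated potassium pore at 42.8 TPM, had 0.01 ± 0.19 in AET against SED, within its spread. Kcnc4, a relative of Kcnc1, had -0.44 ± 0.19 in AET against SED (edgeR adjusted p = 0.169).

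Of 27 tested potassium channel genes below 10 TPM, 16 had an estimate above 0 in AET against SED, beside 7172 of all 13944 genes. With metformin 11 of the 27 did so against SED, beside 7044 of all genes, and 8 against AET, beside 6988. A few genes of this level known from nerve are given here beside Schwann cell markers, and were picked after their values were seen. Kcna1 and Kcnab2, the genes given, both had estimates above 0 in AET against SED. Other tested potassium channel genes of this level were below 0 in that comparison. Among them were Kcnf1 at -1.98, Kcnv2 at -1.44, Kcnh7 at -0.38 and Kcnab1 at -0.20. Kcna1, a pore of myelinated axons, had 3.02, 3.39 and 2.44 CPM in SED, 4.82, 3.24 and 4.70 in AET, and 3.21, 3.98 and 2.42 in AET_MET. AET overlapped both other groups through its replicate 2 (0.52 ± 0.22 against SED, edgeR adjusted p = 0.138). Kcnab2, a beta subunit of such channels, averaged 0.512 ± 0.116 CPM in SED, 0.999 ± 0.274 in AET, and ranged from 0.359 to 0.678 CPM in AET_MET (edgeR adjusted p = 0.106 in AET against SED). The 11 Schwann cell markers summed to 43.5 to 52.6 CPM in SED, 85.8 to 149 in AET and 34.0 to 76.0 in AET_MET. All 11 had higher estimates in AET than in SED. Of them 3, S100b, Gldn and Sox10, were called higher, beside 5.82% of all genes. With metformin 7 of the 11 were above 0 against SED and 1 against AET. In the latter comparison Gldn was called lower, beside 1.77% of all genes. Of 10 neuron markers 1 was tested, and their sum was 1.85 to 2.34 CPM in SED and 1.80 to 2.53 in AET. In AET_MET it was lower than in both, at 1.11 to 1.39 CPM. The tested neuron marker was not called by edgeR in any comparison, and the others had too few reads to be tested. The part of Schwann cells in the channel values, those of Scn2a and Kcnh2 included, was not tested.

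**Figure D4:**
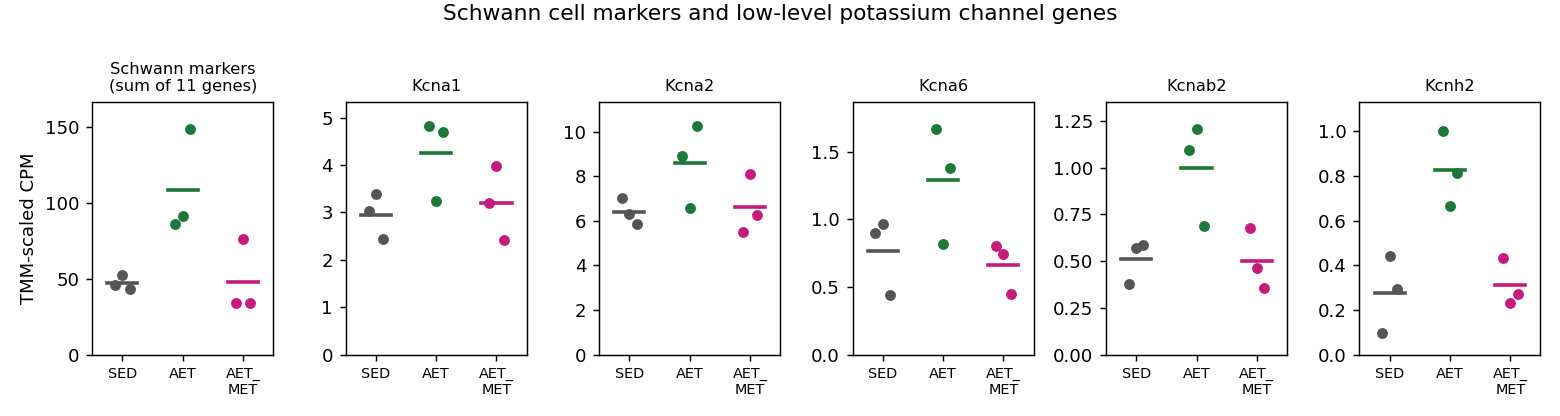
TMM-scaled CPM by library for the sum of 11 Schwann cell markers and for 5 low-level potassium channel genes. The 5 genes were picked after their values were seen, and Kcnh2 passed the filter on low counts only through the AET libraries. Of 27 tested potassium channel genes below 10 TPM, 16 had an estimate above 0 in AET against SED. Points are libraries and bars group means, and the AET marker sums of 85.8 to 149 lie above those of both other groups.

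All 5 tested inward rectifier genes had estimates below 0 in AET against SED, where 7172 of all 13944 genes were above 0. Of the 5, 1 was called, beside 6.45% of all genes called lower. Kcnj12, a strong inward rectifier of the resting fiber at chr11:61022564-61071131 on the plus strand, had 40.7, 38.8 and 40.0 CPM in SED, 31.3, 32.1 and 32.7 in AET, and 34.0, 43.8 and 43.7 in AET_MET. AET lay below all other libraries, and within AET_MET replicate 1 was the low one. It fell by 0.31 ± 0.09 in AET against SED (edgeR adjusted p = 0.0430), a call that held only without AET_MET replicate 1 and was otherwise lost, with adjusted p up to 0.118. It held in 6 of 9 other settings, and was lost with upper-quartile scaling (0.0629), library size alone (0.0693) and the replicate number as a covariate. In AET_MET against AET the fold change was 0.34 ± 0.09 (edgeR adjusted p = 0.0619). Kcnj12 was called there without AET_MET replicate 1 (0.0357) and in 3 of 9 other settings. Kcnj11 had 71.3 to 75.6 CPM in SED, 61.3 to 66.2 in AET and 59.7 to 68.7 in AET_MET. Both trained groups lay below SED, with -0.20 ± 0.07 in AET (edgeR adjusted p = 0.0885). Kcnj2 had -0.06 ± 0.10 in AET against SED, within its spread.

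Calcium-activated and two-pore-domain potassium channels, together 9 tested genes, held 0 calls by edgeR, DESeq2 or limma voom in the 3 comparisons. Kcnt2, a sodium-activated relative, was counted with the calcium-activated genes. With edgeR, 1 of the 9 had an unadjusted p under 0.05 in AET against SED, and with metformin 0 against SED and 3 against AET. The shares of all genes given for the calcium channel subunits apply here too. Kcnma1, the large-conductance calcium-activated pore, averaged 72.8 ± 6.82 CPM in SED, 70.1 ± 4.20 in AET, and ranged from 77.8 to 83.9 CPM in AET_MET. Kcnn1, a small-conductance channel, had 11.5 to 15.8 CPM over all libraries. Kcnn3, whose re-expression is known from denervated muscle, had 1.47, 2.29 and 1.32 CPM in SED, 3.29, 2.58 and 2.96 in AET, and 2.71, 0.648 and 2.38 in AET_MET. AET lay above SED, and the estimate of 0.79 ± 0.41 did not pass the test (edgeR adjusted p = 0.233). Kcnk1, a two-pore-domain leak channel, had 0.314 to 1.76 CPM. Kcnab1, Kcne4 and Kcnip3, subunits that accompany voltage-gated potassium pores, had estimates of -0.20 ± 0.26, -0.19 ± 0.35 and 0.27 ± 0.62 in AET against SED.

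Precision followed the level. The 17 genes of at least 10 TPM had a median coefficient of variation of 7.16% within groups and a median SE of 0.09, and their largest estimate in AET against SED was 0.44 in size. The 28 tested genes under 1 TPM had a median coefficient of variation of 27.4% and a median SE of 0.34.

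Partner genes of the channels were described from 4 lists. Of 21 tested triad and calcium release genes, 1 was called in AET against SED. It was Hrc, a calcium-binding protein of the sarcoplasmic reticulum, which averaged 519 ± 70.0 CPM without training, 704 ± 52.7 in AET and 435 ± 20.3 in AET_MET. It rose by 0.44 ± 0.10 in AET (edgeR adjusted p = 0.0150) and fell by 0.69 ± 0.10 in AET_MET against AET (edgeR adjusted p = 0.0105). Of 26 chloride channel and pump genes, 2 were called higher and 1 lower in AET, and 3 were called higher in AET_MET against SED. Among the latter was Clcn1, the chloride channel of the fiber (0.36 ± 0.08, edgeR adjusted p = 0.0299). Of 26 tested genes whose proteins bind or anchor channels, 5 were called higher and 2 lower in AET, with Ank1, an ankyrin, at 0.60 ± 0.08. Of 14 tested acetylcholine receptor and denervation genes, 1 was called in AET, Gadd45a at -1.43. The share of all genes called in these comparisons is given above.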

How the data were processed

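RNA sequencing of 9 gastrocnemius libraries was deposited by the authors as RSEM expected counts, which are estimates of reads per gene. STAR 2.5.3a, RSEM 1.3.0, edgeR 3.34.0 and build GRCm38 are listed with no role, per the submitters' processing notes. Filters, strand setting and annotation release were not given in the sources used here, so reads of a gene and an antisense neighbour cannot be told apart. Fractional estimates made up 4.85% to 5.53% of each library, and values were rounded before testing. Replicate libraries differed beyond sampling noise, and none was merged.

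Symbols came from GENCODE M21. A model of the 9 libraries was fitted in R 4.3.3 with the robust quasi-likelihood method of edgeR 4.0.16, TMM scaling and filterByExpr, which needs about 0.457 CPM in 3 libraries. Calls required an adjusted p (Benjamini-Hochberg, 13944 genes) under 0.05. Log2 fold changes are given ± SE. Alternatives were other scalings, filters, DESeq2 1.42.0, voom in limma 3.58.1, a fit of the 2 groups, a replicate block and leaving out each library.

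Named genes are every called channel gene, a panel of main muscle channels, the most abundant tested gene of each class, and up to 4 called genes of each partner list. The channel genes and lists were chosen with earlier results of these data known. Some results are not reported here.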

Additional observations from a re-analysis of the deposited data

How the results depend on the processing

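Of 84 gene results, 8 passed the test, and none of the 8 changed sign in any setting. In AET against SED, 6 channel genes were called, 4 with library size alone and 6 in each of the 8 other settings, not always the 6 named, and 1 to 6 when single libraries were left out, with 1 without SED replicate 1 or without AET replicate 2. In AET_MET against SED, 2 were called, 1 with upper-quartile scaling, 5 with library size alone, 1 with limma voom, 0 in a fit of the 2 groups and 0 with the replicate block, and 0 to 5 without single libraries, with 5 without AET_MET replicate 2. In AET_MET against AET, 0 were called, 2 with library size alone, 2 with no filter, 1 with a filter of 1 CPM, 3 with DESeq2, 1 in a fit of the 2 groups, and 0 to 1 without single libraries. The cause of these differences was not tested. Same-numbered libraries correlated at 0.0194 to 0.133 in AET against SED, 0.0192 to 0.219 in AET_MET against SED and -0.0711 to 0.00872 in AET_MET against AET, and 5, 2 and 0 of 6 libraries correlated best with their own number. Since not every pair exceeded 0.1, the numbers were not taken as pairs. The replicate block ended the calls of Cacna1i (adjusted p = 0.101) and Kcnc1 (0.0601) in AET_MET against SED, and of Kcnj12 (0.0503) and Kcnh2 (0.0800) in AET against SED. With the length of the longest transcript, the 5 highest genes held 67.9% of the channel TPM.

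Library size alone moved the median of all genes by 0.10 in AET_MET against SED, where 684 of 860 calls were then higher, and 611 of 767 in AET_MET against AET. With upper-quartile scaling, 980 of 1691 calls were higher in AET against SED, beside 812 of 1712. Over all genes, leaving out single libraries gave 934 to 1509 calls in AET against SED, 141 to 655 in AET_MET against SED and 23 to 461 in AET_MET against AET, which gave 731 with no filter and 880 with DESeq2.

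Estimates that changed sign, none past the threshold, were these. With upper-quartile scaling, Cacna2d1 was 0.0080, Kcnc4 0.012 and Scn4a 0.014 in AET_MET against SED, and Kcnj11 -0.00173 in AET_MET against AET. With library size alone, Cacna2d1 was 0.083, Kcnc4 0.080, Kcnj2 0.024, Kcnn1 0.043 and Scn4a 0.087 in AET_MET against SED, and Kcnj2 0.070, Kcnk1 0.014, Kcnn1 0.084, Scn4a 0.075 and Scn4b 0.059 in AET_MET against AET. With no filter, Kcna7 was -0.0047 and Scn4a -0.0080 in AET against SED, and with a filter of 1 CPM Kcnj11 was -0.0022 in AET_MET against AET. With limma voom, Kcnn3 was -0.091 in AET_MET against SED and Kcnn1 0.0038 in AET_MET against AET. With the replicate block, Kcnc4 was 0.000949 in AET_MET against SED and Kcnn1 0.0022 in AET_MET against AET.

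Without single libraries, the ranges were as follows: in AET against SED, Kcna7 -0.12 to 0.22, Kcne4 -0.50 to 0.22, Kcnip3 -0.12 to 0.67, Kcnn1 -0.21 to 0.044, Scn4a -0.076 to 0.076, Scn4b -0.026 to 0.14. They were, in AET_MET against SED, Cacna2d1 -0.067 to 0.066, Kcna7 -0.069 to 0.27, Kcnc4 -0.13 to 0.13, Kcne4 -0.46 to 0.28, Kcnh2 -0.28 to 0.64, Kcnip3 -1.51 to 0.071, Kcnj12 -0.047 to 0.14, Kcnn1 -0.13 to 0.040, Kcnn3 -0.16 to 0.56, Scn4a -0.066 to 0.030, Scn4b -0.041 to 0.055. They were, in AET_MET against AET, Kcna7 -0.11 to 0.15, Kcnc1 -0.0077 to 0.090, Kcne4 -0.28 to 0.37, Kcnj11 -0.060 to 0.049, Kcnj2 -0.099 to 0.057, Kcnk1 -1.17 to 0.32, Kcnn1 -0.089 to 0.16, Scn4a -0.089 to 0.060, Scn4b -0.12 to 0.044.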
